A study of Mus musculus with 20 samples.

Results

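The voltage-gated sodium channel genes analyzed here were 9 of the 24411 genes in the deposited tables: Scn1a, Scn2a1, Scn3a, Scn7a, Scn8a and Scn9a, which encode alpha subunits, and Scn2b, Scn3b and Scn4b, which encode beta subunits. They were chosen by name, all 9 were present in both tables, and all 9 had reads or a value above 0 in each of the 20 libraries. RNA was sequenced from the apical coil of the mouse cochlea (sensory epithelium with spiral ganglion neurons, SGNs), and the methods state that the RNA of 4 mice was pooled for a library, while a supplementary legend allows smaller pools. All mice were on the C57BL/6N background and of both sexes, and every mouse carried at least 1 tm2b allele of Adgrb1, the gene that encodes the adhesion receptor BAI1. In this allele exons 3 and 4 are deleted and a lacZ cassette with a splice acceptor remains, whereas exons downstream of the deletion are kept. The control group was therefore heterozygous (Bai1 tm2b/+) rather than wild-type, and was compared with Bai1 tm2b/tm2b littermates. There were 3 pools per genotype at P22 (postnatal day 22) and 3 per genotype at P7 (postnatal day 7, replicates 5 to 7) with estimated counts, and 4 per genotype at P7 (replicates 1 to 4) with values that behave as TPM (transcripts scaled to a common total in every library) rounded to whole numbers. The allele was converted in the embryo and is not restricted to a cell type, and these bulk libraries sum the RNA of neurons, glia, hair cells and supporting cells.

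A voltage-gated sodium channel consists of 1 pore-forming alpha subunit and associated beta subunits. The alpha subunit opens on depolarization and carries the inward current of the action potential, while beta subunits are single-pass membrane proteins that change gating and tether the channel to adhesion molecules and the cytoskeleton. In myelinated axons the channels cluster at the initial segment and at nodes of Ranvier, and in many neurons the channel at these sites is exchanged during development, from Scn2a1 (Nav1.2) to Scn8a (Nav1.6). In the cochlea, SGNs fire the action potentials that carry the auditory signal to the brainstem, and hearing starts between the ages sampled here. Scn1a encodes Nav1.1 of nodes and cell bodies, Scn3a encodes Nav1.3, which is typical of immature neurons, Scn9a encodes Nav1.7 of peripheral sensory neurons, and Scn7a encodes the atypical channel Nax, which is known from glia and some neurons and is not opened by voltage in the usual way. Scn4b encodes the beta 4 subunit linked to resurgent current, Scn2b encodes beta 2, which like beta 4 is bound to the alpha subunit by a disulfide bond, and Scn3b encodes beta 3, which binds without one.

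In GRCm38 (mm10, GENCODE M21), 5 of the alpha genes lie in a cluster of 1.33 Mb on chromosome 2, from the start of Scn3a at 65457118 to the end of Scn7a at 66784914. Scn8a lies apart, on the plus strand of chromosome 15 from 100869858 to 101045938, on the same chromosome as Adgrb1 and 26.3 Mb downstream of its end. The 3 beta genes lie on the plus strand of chromosome 9: Scn3b from 40269217 to 40291618, Scn2b from 45117782 to 45130070 and Scn4b from 45138395 to 45154152. Scn2b and Scn4b are neighbors on the same strand with 8324 bp between them. The exons of 8 of the 9 genes overlap no other annotated gene. Those of Scn9a share 1.41% of their bases with Gm13629 on the opposite strand, and whether the counting used strand was not stated in the sources used here.

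The start-site sequences of Scn8a and Scn4b are shown because these were the genes of the 9 with the largest rise between ages and the only ones called at P22, and that of Scn2b because it is the neighbor of Scn4b and did not move with it. Each runs from 250 bases before to 50 bases after a RefSeq start on GRCm38.p6, 5′ to 3′ on the plus strand, with CG dinucleotides in capitals; the spans are chr15:100870395-100870694, chr9:45138374-45138673 and chr9:45117626-45117925.
Scn8a: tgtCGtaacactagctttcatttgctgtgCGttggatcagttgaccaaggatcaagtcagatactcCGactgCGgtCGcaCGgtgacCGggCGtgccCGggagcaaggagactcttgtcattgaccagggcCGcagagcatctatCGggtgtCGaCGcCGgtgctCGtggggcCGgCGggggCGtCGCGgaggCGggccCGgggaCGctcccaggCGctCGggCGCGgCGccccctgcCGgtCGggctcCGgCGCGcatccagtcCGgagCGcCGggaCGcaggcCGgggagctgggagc
Scn4b: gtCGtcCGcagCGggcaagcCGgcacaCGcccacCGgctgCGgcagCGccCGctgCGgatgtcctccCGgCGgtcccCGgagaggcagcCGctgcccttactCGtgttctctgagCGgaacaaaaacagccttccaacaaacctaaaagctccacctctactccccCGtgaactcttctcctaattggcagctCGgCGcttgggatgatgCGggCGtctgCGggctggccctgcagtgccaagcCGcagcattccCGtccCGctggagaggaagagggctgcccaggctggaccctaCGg
Scn2b: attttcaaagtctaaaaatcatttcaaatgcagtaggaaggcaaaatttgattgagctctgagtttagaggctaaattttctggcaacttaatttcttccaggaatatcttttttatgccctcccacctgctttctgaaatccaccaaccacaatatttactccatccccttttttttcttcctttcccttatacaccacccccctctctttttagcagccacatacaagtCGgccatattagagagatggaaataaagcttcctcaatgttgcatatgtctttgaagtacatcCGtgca
The Scn8a sequence held 38 CG dinucleotides at 70.0% GC, and 4.95% of the 32851 RefSeq mouse promoters of the same length hold at least as many. The Scn4b sequence held 26 at 66.3% GC (16.9% of promoters hold as many), whereas the Scn2b sequence held 2 at 38.3% GC (85.9% of promoters hold as many). Over all these promoters the median was 7 CG dinucleotides at 52.7% GC, and 94.6% held at least 1. Promoters were matched for 7 of the 9 genes (9 promoters in all, with a second start for Scn2a1 and for Scn8a). The second Scn8a start held 12, so the high number belongs to the first. These counts describe the windows, and no methylation or binding was measured.

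The libraries in counts summed to between 31108551 and 58807173 estimated counts, and the number of reads behind the rounded TPM is unknown. Count-based levels are given as CPM (the share of a library's counts, after scaling of all 12 count libraries together by TMM, the trimmed mean of M-values). A gene was called in a genotype comparison when its Benjamini-Hochberg adjusted p was under 0.05, its log2 fold change (tm2b/tm2b over tm2b/+) exceeded 0.5 upward or downward, and that change had a standard error (SE) under 0.5. Adgrb1, the targeted gene, had 153 to 167 CPM in heterozygous and 100.5 to 105 CPM in homozygous pools at P22 (log2 fold change -0.61, SE 0.06, edgeR adjusted p = 0.000606). In the P7 counts it had 32.1 to 56.6 CPM against 21.6 to 31.3 CPM (log2 fold change -0.64, SE 0.23, edgeR adjusted p = 0.895, not called). In the P7 rounded TPM it was listed at 10, 12, 8 and 7 against 9, 9, 10 and 12 (0.01, SE 0.13, limma adjusted p = 0.971). Those groups overlapped, so these values could not check the labels of that set. Reads of Adgrb1 outside exons 3 and 4 are counted as well. Neuronal content of the tissue was checked with 13 neuron markers fixed as a list (among them Tubb3, Rbfox3, Nefh and Snap25): all 13 were detected at both ages, whereas at P22 7 of 10 brain neuron markers and 7 of 8 skeletal muscle markers had a mean under 1 CPM in both genotypes. Relative to the 13 neuron markers in each library, Adgrb1 in the P7 rounded TPM averaged -3.75 in heterozygous and -3.97 in homozygous libraries (log2). On this measure its groups did not overlap (exact permutation p = 0.02857, the smallest that 4 against 4 can give, not adjusted). In the P7 counts its groups overlapped on this measure (exact permutation p = 0.3), and the share of all genes was not computed.

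At P22, 2 of the 9 sodium channel genes were called lower in Bai1 tm2b/tm2b, Scn8a and Scn4b, against 1.41% of all 15419 genes tested. In edgeR 0 were called higher (1.74% of all genes), and DESeq2 called none higher. Of the 9, 1 (Scn2b) was higher at an unadjusted p under 0.05 in edgeR. Among all 15419 genes, 4422 were under 0.05 in either direction. DESeq2 called the same 2 genes lower (2.73% of all genes called in either direction). The list as a whole had a median log2 fold change of 0.15, beside 0.01 for all genes tested. The called genes were thus 1 alpha and 1 beta gene, and the other 7 had differences between -0.24 and 0.29 that did not pass.

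Scn8a had 436, 398 and 493 CPM in the heterozygous pools and 285, 304 and 294 CPM in the homozygous pools. The homozygous pools lay close together and all below the lowest heterozygous pool. Means were 442 ± 47.8 and 294 ± 9.71 CPM (SD, n = 3 each), a 1.49-fold lower level with a log2 fold change of -0.58 (SE 0.08, edgeR adjusted p = 0.00245). Scn4b, the most abundant member, had 876, 796 and 960.1 CPM in heterozygous and 628, 587 and 597 CPM in homozygous pools, again without overlap. Its means were 878 ± 81.8 and 604 ± 21.4 CPM (SD, n = 3 each), 1.45-fold lower, with a log2 fold change of -0.53 (SE 0.07, edgeR adjusted p = 0.00291). Among the 15419 genes, Scn8a ranked 329th and Scn4b 406th from the lowest fold change.

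Scn1a, the second most abundant alpha gene, had 157, 143 and 183 CPM in heterozygous pools and 134, 139 and 132 CPM in homozygous pools. The groups did not overlap, by a margin of a few CPM, and its log2 fold change of -0.24 was not called (SE 0.08, edgeR adjusted p = 0.0807). Scn2b lay the other way, with 25.8, 23.1 and 25.7 CPM against 26.9, 31.5 and 28.1 CPM and a log2 fold change of 0.22 (SE 0.08, edgeR adjusted p = 0.114, not called). In all, 4 of the 9 genes had groups that did not overlap, 3 with the homozygous pools lower and 1 with them higher, while 33.7% of all genes tested did not overlap (18.8% lower and 15% higher). With 3 pools against 3 the exact 2-sided permutation test cannot give a p below 0.1, and it gave exact p = 0.1 for each of these 4 genes. Scn2a1 had 8.27, 6.58 and 9.79 CPM against 8.97, 11.2 and 9.68 CPM. Its groups overlapped, and its log2 fold change was 0.28 (SE 0.16, edgeR adjusted p = 0.269). Scn3a, Scn9a and Scn3b were at 1.82 to 5.74 CPM in all 6 pools and Scn7a at 8.06 to 12.2 CPM. Each of these 4 genes overlapped between genotypes.

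**Figure D1:**
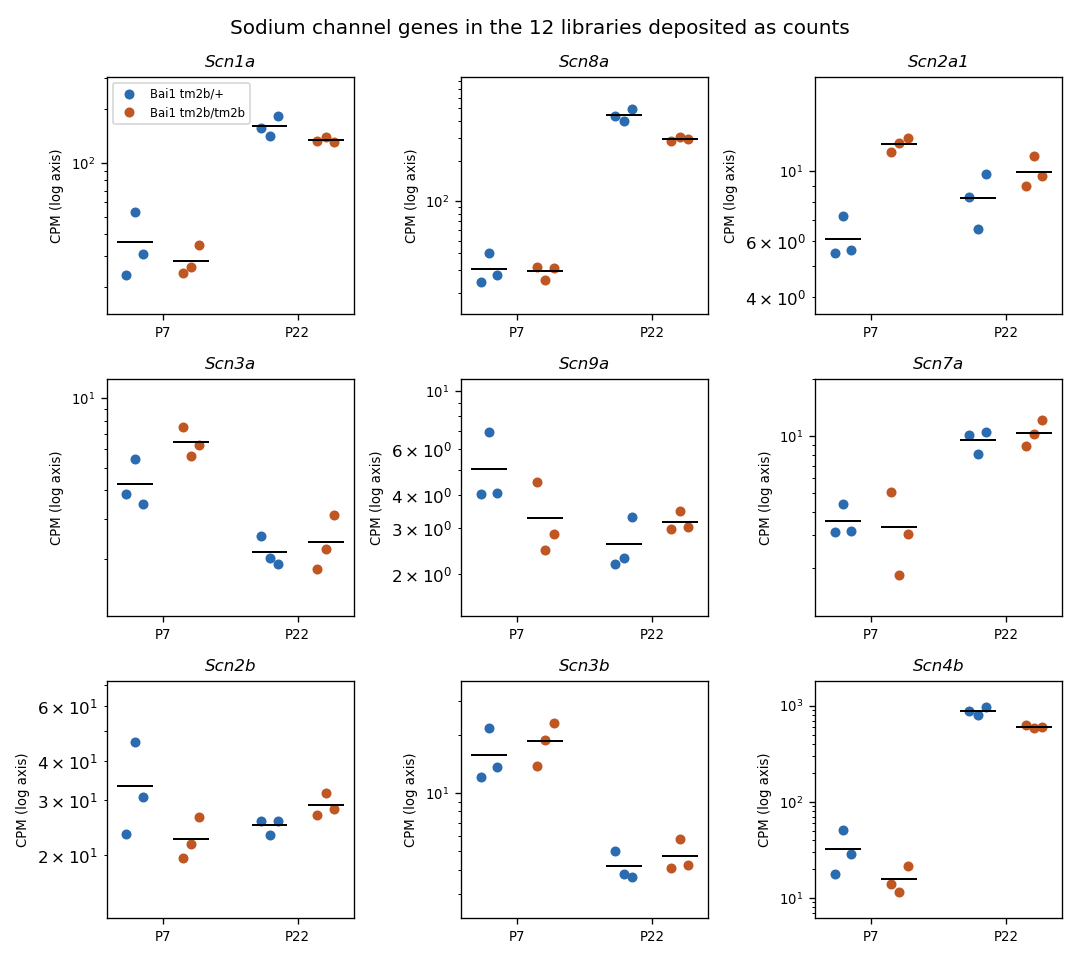
Level of each sodium channel gene (CPM, log axis, a panel per gene) in the 12 libraries deposited as counts, by age and genotype. Each point is a pool and each bar the mean of 3 pools. Scn8a and Scn4b sit far above their P7 levels at P22, with the tm2b/tm2b pools (285 to 304 CPM and 587 to 628 CPM) below all tm2b/+ pools. In these P7 pools the Scn2a1 points of the genotypes lie apart, a change that edgeR did not call (adjusted p = 0.569).

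The summed level of the neuron markers was lower in the same pools. At P22 12 of the 13 had a negative log2 fold change (median -0.25), 1 of them (Nefh) was called, and their summed level was 17156 to 19275 CPM in heterozygous and 13017 to 14762 CPM in homozygous pools. Central glia markers (myelinating glia and astrocytes of the brain side of the nerve) moved the opposite way: 5 of 8 were called higher (Hapln2, Mobp, Mog, Olig1 and Olig2), with a median of 0.76 and summed levels of 485 to 528 CPM against 611 to 1044 CPM. Hair cell markers were positive in 8 of 8 (median 0.51), with Ocm and Otof called higher. In bulk samples, fewer cells of a type and less RNA per cell cannot be told apart. When the libraries were scaled to the 13 neuron markers in place of TMM, the median of all genes moved to 0.29, 53 of 15419 genes were called lower (0.344%) and 2109 higher (13.7%). On that scale 0 of the 9 genes were called lower and 2 higher. Scn8a kept a log2 fold change of -0.30 (edgeR adjusted p = 0.0124) and Scn4b of -0.25 (edgeR adjusted p = 0.00828), both under the size required, while Scn2a1 had 0.57 (edgeR adjusted p = 0.0203) and Scn2b 0.50 (edgeR adjusted p = 0.00727). Scn1a changed sign, to 0.04. Relative to the neuron markers of its own library, Scn8a had log2 values of -0.85, -0.93 and -0.77 in heterozygous and -1.29, -1.04 and -1.13 in homozygous pools, which did not overlap (exact p = 0.1). On this measure Scn4b was also lower without overlap (-0.25). Scn2a1 (0.57), Scn9a (0.58) and Scn2b (0.49) were higher without overlap (exact p = 0.1 for each of these genes). The share of all genes without overlap was not computed on this measure. Without heterozygous replicate 3, the pool with the highest Scn8a, Scn1a and Scn4b, 0 of the 9 genes were called and the log2 fold changes of Scn8a and Scn4b were -0.49 and -0.46. The part of the neuron and glia markers in these differences was not tested.

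In the P7 libraries in counts, 0 of the 9 genes were called in either direction by edgeR, as were 0 of all 16003 genes tested (0%; 763 had an unadjusted p under 0.05, 3 of them in the list: Scn2a1, Scn3a and Scn4b). Scn2a1, the channel that many neurons use before Scn8a, had 5.50, 7.23 and 5.63 CPM in heterozygous and 11.6, 12.3 and 12.7 CPM in homozygous pools. The groups were well apart, with means of 6.12 ± 0.965 and 12.2 ± 0.598 CPM (SD, n = 3 each), a 2.02-fold higher level and a log2 fold change of 1.02 (SE 0.13, edgeR adjusted p = 0.569, exact p = 0.1). The Wald test of DESeq2 called it, as the only 1 of the 9 genes, at a log2 fold change of 1.01 (SE 0.15, DESeq2 adjusted p = 1.71e-07), while DESeq2 called 0.248% of all genes. Scn3a, the other channel typical of immature neurons, had 3.82, 5.47 and 3.49 CPM against 7.51, 5.61 and 6.29 CPM. Its groups were separated by the small gap between heterozygous replicate 6 and homozygous replicate 6, and its log2 fold change was 0.63 (SE 0.22, edgeR adjusted p = 0.895). In CPM these were the only 2 of the 9 genes without overlap, both with the homozygous pools higher (4.91% of all genes, while 10.8% did not overlap in either direction). Relative to the neuron markers of each library, Scn2a1 (1.32), Scn3a (0.93) and Scn3b (0.56) were higher in homozygous pools without overlap. Scn4b (-0.65) was lower without overlap (exact permutation p = 0.1 for each of these genes). The share of all genes was not computed on this measure.

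Scn4b had 17.6, 50.6 and 28.5 CPM in heterozygous and 13.9, 11.4 and 21.7 CPM in homozygous pools at P7. The groups overlapped, because heterozygous replicate 5 lay below homozygous replicate 7, and the log2 fold change of -1.01 carried a large error (SE 0.39, edgeR adjusted p = 0.895). Scn8a had 24.1, 40.1 and 27.5 CPM against 31.6, 25.0 and 30.9 CPM, with a log2 fold change of -0.04 (SE 0.19, edgeR adjusted p = 0.979). Its sign turned positive when heterozygous replicate 6 or homozygous replicate 6 was left out. Scn2b (-0.54), Scn9a (-0.60), Scn1a (-0.32), Scn3b (0.25) and Scn7a (-0.06) also overlapped between genotypes. Heterozygous replicate 6 was the highest heterozygous pool for all 9 genes and had the highest summed neuron markers of the 6 pools; the neuron markers summed to 1722 to 3495 CPM in heterozygous and 1446 to 2256 CPM in homozygous pools, with a median log2 fold change of -0.35 over the 13. Of the brain neuron list, 7 of 9 tested markers were positive (median 0.94, beside 0.00 for all genes). Their summed level was 64.0 to 75.6 CPM in heterozygous and 74.2 to 78.5 CPM in homozygous pools, and 7 of the 10 had a mean under 1 CPM in the heterozygous group but 3 of 10 (Tbr1, Slc6a5 and Gabra6) in the homozygous group. Central glia markers were positive in 6 of 8 (median 0.40), with summed levels of 476 to 590.5 CPM in heterozygous and 583 to 801 CPM in homozygous pools. Schwann and myelin markers were negative in 12 of 12 (median -0.42), with 10434 to 17581 CPM against 6044 to 12239.8 CPM. The part of these cell types in the Scn2a1 and Scn3a values was not tested.

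In the P7 libraries in rounded TPM, 1 of the 9 genes was called higher in Bai1 tm2b/tm2b and 0 lower, against 0.572% and 0.179% of the 11722 genes tested. Only 5 of the 9 genes reached the mean of 5 TPM required for a test, which were Scn1a, Scn8a, Scn2b, Scn3b and Scn4b. Scn8a was listed at 4, 5, 3 and 3 in heterozygous replicates 1 to 4 and at 5, 8, 7 and 7 in homozygous replicates 1 to 4. The groups touched at 5, and after scaling heterozygous replicate 2 (5.02) lay above homozygous replicate 1 (4.88). On the log2(TPM + 1) scale the change was 0.61 (SE 0.15, limma adjusted p = 0.0472), opposite in direction to P22 and close to the threshold. On these low whole numbers, rounding alone moves a value by up to 0.5 TPM. The call was lost without heterozygous replicate 2, 3 or 4 or homozygous replicate 3 or 4 (limma adjusted p from 0.0637 to 0.128). Without homozygous replicate 2, Scn8a was under 5 TPM on average and was not tested. Relative to the neuron markers of each library the Scn8a groups did not overlap (exact permutation p = 0.02857, the smallest that 4 against 4 can give, not adjusted for the 9 genes). The Scn2b groups did not overlap on this measure either, with homozygous libraries higher by 0.27 (exact permutation p = 0.02857). The share of all genes was not computed on it. The Scn8a call was lost when libraries were scaled to those markers (log2 fold change 0.43, limma adjusted p = 0.178).

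Scn2b was listed at 18, 21, 13 and 12 in heterozygous and at 19, 27, 27 and 25 in homozygous libraries, with a log2 fold change of 0.49 (SE 0.15, limma adjusted p = 0.0604, not called). The higher values came with homozygous replicates 2, 3 and 4, while replicate 1 lay within the heterozygous range. Scn1a (0.42, limma adjusted p = 0.105), Scn3b (0.42, limma adjusted p = 0.083) and Scn4b (0.32, limma adjusted p = 0.413) were also positive without being called, so all 5 tested genes had the same sign, with a median of 0.42 beside 0.00 for all genes. The groups of all 9 genes overlapped, while 18.4% of all genes tested did not. Scn2a1 was listed at 1, 2, 1 and 1 against 2, 1, 1 and 3, values that overlapped (exact p = 0.714), and the separation of the genotypes in the P7 counts was not seen in this set. Scn3a and Scn7a were listed at 1 in all heterozygous and 3 of 4 homozygous libraries, and Scn9a at 1 in all heterozygous libraries and at 2, 2, 1 and 3 in homozygous libraries. Neuron markers had a median log2 fold change of 0.22 in this set, with 10 of 13 positive, and central glia markers were negative in 6 of 6 tested (median -0.47, Mobp and Mog called lower). Those marker lists thus had the opposite sign from P22, and their part in the sodium channel values was not tested. Without TMM scaling, 9 genes were called lower and 284 higher among all genes, Scn2b among them; scaled to neuron markers, 111 were called lower and 9 higher.

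**Figure D2:**
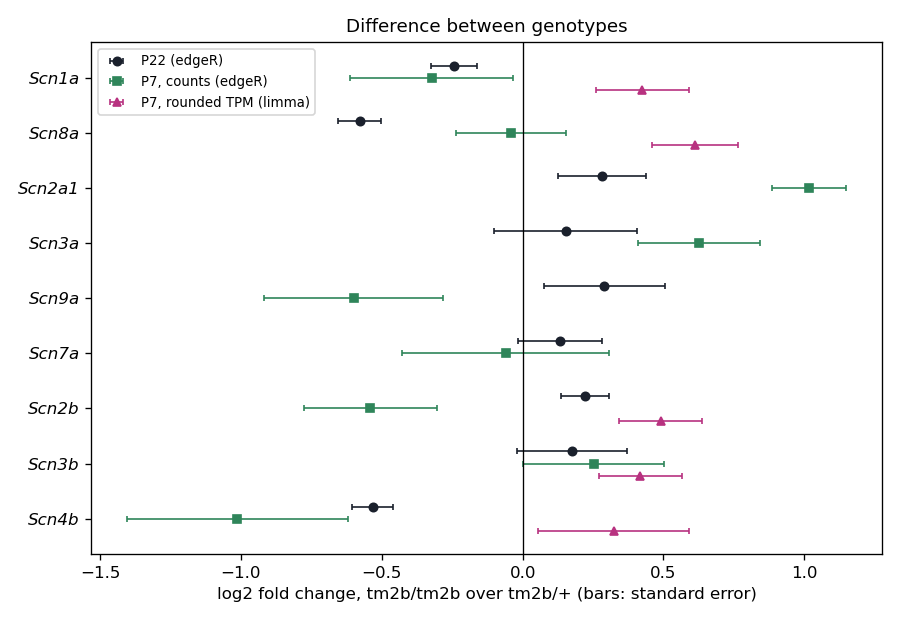
Log2 fold change of each sodium channel gene between genotypes (tm2b/tm2b over tm2b/+) in the P22 counts, the P7 counts (both edgeR) and the P7 rounded TPM (limma, on log2(TPM + 1)). Points are fitted changes and bars their SE. Scn8a is at -0.58 at P22, -0.04 in the P7 counts and 0.61 in the P7 rounded TPM, and 4 genes have no rounded TPM point because they were under the minimum.

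A genotype difference called at P22 but not at P7 does not show that the ages differ, so the difference of the genotype effects was tested in a joint fit of the 12 count libraries. In edgeR 0 of the 9 genes were called, beside 0.0307% of 16290 genes lower and 0% higher. An unadjusted p under 0.05 was found for 4 of the 9 (Scn2a1, Scn2b, Scn8a and Scn9a), beside 1656 of the 16290 genes. DESeq2 also called 0 of the 9 (0.606% of all genes). For Scn8a the genotype effect at P22 minus that at P7 was -0.52 on the log2 scale (SE 0.22, edgeR adjusted p = 0.462). For Scn2a1 it was -0.72 (SE 0.22, edgeR adjusted p = 0.305), and for Scn4b it was 0.50 (SE 0.43, edgeR adjusted p = 0.725).

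From P7 to P22 the composition of the channel family changed. Over the 12 count libraries, averaged over genotypes, Scn4b, Scn8a, Scn1a and Scn7a rose (4 of 9, beside 13.8% of 16290 genes called higher) and Scn3b and Scn3a fell (2 of 9, beside 16.2% called lower), where a call between ages required a log2 fold change above 1. Scn9a, Scn2a1 and Scn2b were not called. The P7 and P22 libraries differ in batch and were deposited in separate tables, so age and batch cannot be told apart.

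Scn4b was at 11.4 to 50.6 CPM in the 6 P7 pools and at 587 to 960.1 CPM in the 6 P22 pools, a 32.2-fold rise (log2 fold change 5.01, SE 0.25, edgeR adjusted p = 1.36e-09). Scn8a was at 24.1 to 40.1 CPM and at 285 to 493 CPM, a 12.1-fold rise (log2 fold change 3.59, SE 0.12, edgeR adjusted p = 8.23e-11). Scn1a went from 23.4 to 53.4 CPM at P7 to 132 to 183 CPM at P22, a 4.61-fold rise (log2 fold change 2.20, SE 0.17, edgeR adjusted p = 8.00e-08). At P7 these 3 genes were thus in the same range of CPM, and at P22 they were not. Scn7a, the atypical channel, rose 2.90-fold from a low level (1.84 to 5.07 CPM at P7 and 8.06 to 12.2 CPM at P22, log2 fold change 1.54, SE 0.20, edgeR adjusted p = 1.23e-05).

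Scn3b, the beta subunit with the largest decrease, fell 3.87-fold from 12.1 to 23.0 CPM at P7 to 3.67 to 5.74 CPM at P22 (log2 fold change -1.95, SE 0.18, edgeR adjusted p = 3.92e-07). Scn3a fell 2.33-fold from 3.49 to 7.51 CPM to 1.82 to 3.10 CPM (log2 fold change -1.22, SE 0.17, edgeR adjusted p = 1.89e-05). Scn3a was called in homozygous libraries alone (log2 fold change -1.46), whereas in heterozygous libraries alone (-0.96) and with the trend on transcript length removed (-0.94) it was under the size required. Scn2b overlapped between ages, at 19.6 to 46.0 CPM at P7 and 23.1 to 31.5 CPM at P22 (log2 fold change -0.04, SE 0.14, edgeR adjusted p = 0.811). Scn2a1 had a log2 fold change of 0.06 (SE 0.11, edgeR adjusted p = 0.612), with 0.46 in heterozygous libraries alone and -0.31 in homozygous libraries alone, where the P7 pools were high. Scn9a had -0.50 (SE 0.20, edgeR adjusted p = 0.0313) and did not reach the size required. The P7 and P22 pools of 6 of the 9 genes did not overlap, beside 62.6% of all genes tested.

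**Figure D3:**
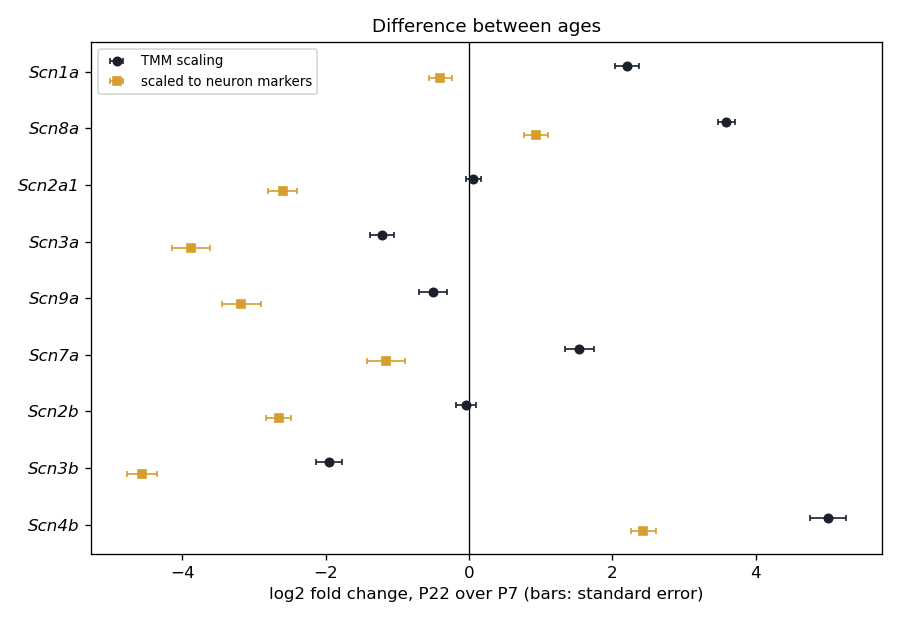
Log2 fold change of each sodium channel gene from P7 to P22, averaged over genotypes, with TMM scaling and with libraries scaled to 13 neuron markers (edgeR). Points are fitted changes and bars their SE. Scn4b is the only gene above 1 on both scales (5.01 and 2.43), and Scn1a goes from 2.20 to -0.40.

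The neuron markers rose as well: all 13 were called higher at P22, the median change was 2.67 on the log2 scale, and they summed to 1446 to 3495 CPM at P7 and to 13017 to 19275 CPM at P22. Of the Schwann and myelin markers 7 of 12 were called higher (median 1.04). Scaling to the neuron markers moved the median of all genes from -0.05 to -2.74, with 88% of all genes called lower and 0.602% higher, and on that scale 1 of the 9 genes was called higher and 6 lower. Scn4b kept its rise (log2 fold change 2.43). Scn8a had 0.94, a little under the size required but above the neuron markers as a group. Scn1a was at -0.40 and changed sign, as did Scn7a (-1.15) and Scn2a1 (-2.60). Scn2b (-2.66), Scn9a (-3.17), Scn3a (-3.88) and Scn3b (-4.56) were far lower on that scale.

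A ratio of 2 genes within a library does not depend on how the library is scaled. The ratio of Scn8a to Scn2a1 counts was 4.39, 5.55 and 4.90 in the heterozygous and 2.74, 2.03 and 2.43 in the homozygous P7 pools, and 52.7, 60.5 and 50.4 in the heterozygous and 31.8, 27.3 and 30.4 in the homozygous P22 pools. All P22 pools lay above all P7 pools, an 11.7-fold difference (3.55 on the log2 scale, 2-sided exact permutation p = 0.00216, the smallest that 6 against 6 can give, adjusted p = 0.00866 over 12 ratio tests). At each age the homozygous pools lay below the heterozygous pools, by 0.87 at P22 and by 1.05 at P7 on the log2 scale (exact p = 0.1 each, the smallest possible, adjusted p = 0.15). The ratio of Scn1a to Scn3a was 6.13, 9.75 and 8.87 in heterozygous and 3.21, 4.64 and 5.53 in homozygous P7 pools, and 42.5 to 95.6 at P22, an 11.1-fold difference between ages (exact p = 0.00216, adjusted p = 0.00866). It differed between genotypes without overlap at P7 (by 0.90 on the log2 scale, exact p = 0.1), while at P22 the genotypes overlapped (exact p = 0.5).

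For the beta subunits, the ratio of Scn4b to Scn3b was 1.45, 2.34 and 2.11 in heterozygous and 1.01, 0.609 and 0.942 in homozygous P7 pools. At P22 it was 175, 209 and 261 in heterozygous and 154, 102 and 141 in homozygous pools, so that the ages differed 131-fold (7.04 on the log2 scale, exact p = 0.00216, adjusted p = 0.00866). The homozygous pools were lower at both ages without overlap (log2 differences of -0.70 at P22 and -1.21 at P7, exact p = 0.1 each, adjusted p = 0.15). For all 3 ratios, the share of all gene pairs without overlap between genotypes was not computed. Among the single genes tested, 33.7% at P22 and 10.8% in the P7 counts did not overlap. In the P7 rounded TPM none of the 3 ratios separated the genotypes (exact p from 0.314 to 0.771), and those of the alpha genes rest on denominators of 1 to 3 TPM. The set of 3 pools and the set of 4 pools at P7 thus differed in this respect, and no test between them was made because their units differ.

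**Figure D4:**
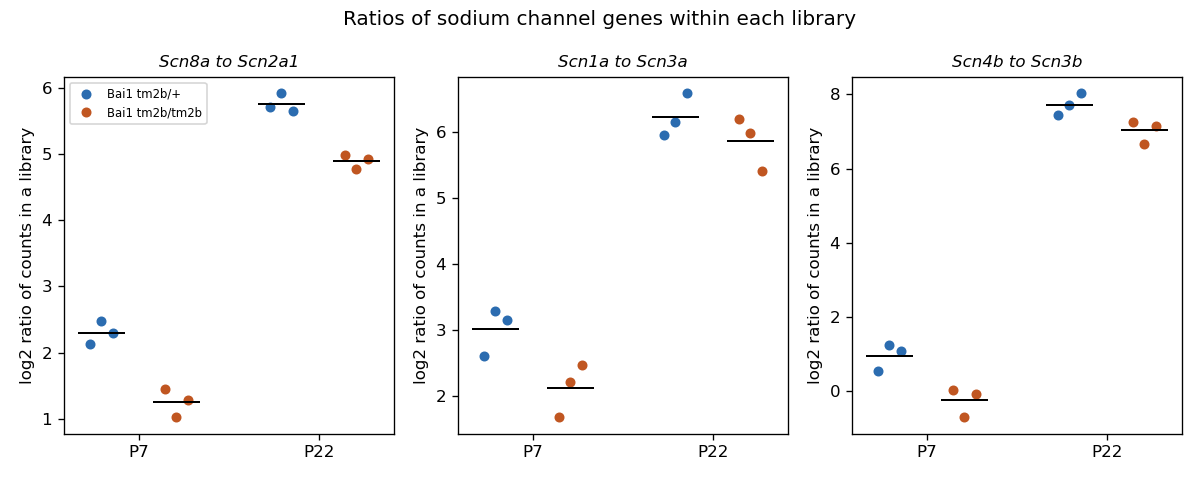
Log2 ratio of counts within each library for Scn8a to Scn2a1, Scn1a to Scn3a and Scn4b to Scn3b, by age and genotype. Points are pools and bars the mean of 3. All P22 pools lie above all P7 pools in each panel, and tm2b/tm2b pools lie below tm2b/+ pools in each case except Scn1a to Scn3a at P22, where they overlap.

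Levels of different genes were compared per length, as TPM computed from the counts with the longest annotated protein-coding transcript of each gene (any transcript for genes without one). At P22 the order of the alpha genes was Scn8a (90.5 ± 10.9 TPM in heterozygous and 61.1 ± 3.37 TPM in homozygous pools, SD, n = 3 each), Scn1a (44.8 ± 6.20 and 38.2 ± 1.85 TPM), Scn7a, Scn2a1, Scn9a and Scn3a. Scn7a and Scn2a1 overlapped with each other, as did Scn9a and Scn3a, and these 4 had means of 0.526 to 3.38 TPM. At P7 the heterozygous order was Scn1a (12.4 ± 5.09 TPM), Scn8a (7.79 ± 1.96 TPM), Scn2a1, Scn9a, Scn7a and Scn3a, and Scn1a and Scn8a overlapped. In homozygous P7 pools, Scn2a1 had 4.15 ± 0.0687 TPM beside 1.997 ± 0.268 TPM in heterozygous pools. As a share of the summed level of the 6 alpha genes (other sodium channel genes are not in the sum), Scn8a took 63.9% ± 0.445 in heterozygous and 57.3% ± 0.104 in homozygous P22 pools, and 29.8% ± 1.70 and 29.2% ± 1.77 in the P7 pools (SD, n = 3 each). Scn1a took 31.6% ± 0.377 and 35.8% ± 0.751 at P22. Scn2a1 took 7.83% ± 1.34 in heterozygous and 15.7% ± 1.79 in homozygous P7 pools, and 1.51% ± 0.131 and 2.47% ± 0.198 at P22. Of the 20 annotated Scn8a transcripts, the longest protein-coding one has 11436 bases and the median of the protein-coding ones is 2110. A shorter assumed length would thus raise the level of Scn8a beside the others.

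Among the 3 beta genes, Scn4b had 412 ± 43.7 TPM in heterozygous and 287 ± 4.36 TPM in homozygous P22 pools, or 96.5% ± 0.245 and 94.3% ± 0.701 of their summed level. At P7 Scn2b came first, with 41.7% ± 2.33 in heterozygous and 39.3% ± 2.46 in homozygous pools. There Scn4b and Scn3b exchanged places: Scn4b took 35.9% ± 4.78 in heterozygous and 25.0% ± 4.36 in homozygous pools, and Scn3b 22.4% ± 2.75 and 35.7% ± 3.68, although neighbors in each order overlapped in level. In the P7 rounded TPM, whose length correction is the authors' own, Scn1a also came before Scn8a (means of 9.25 and 3.75 TPM in heterozygous and 13.5 and 6.75 TPM in homozygous libraries), and the beta order was Scn2b, Scn4b and Scn3b in both genotypes.

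**Figure D5:**
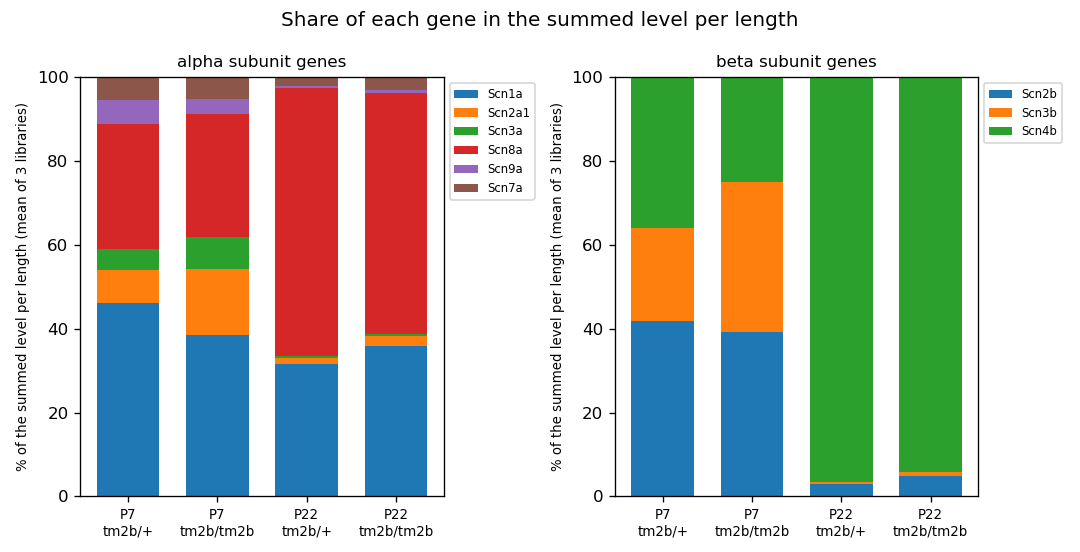
Share of each gene in the summed level per length (percent of summed TPM, mean of 3 pools) of the 6 alpha genes and of the 3 beta genes, by age and genotype. Scn8a takes 63.9% and 57.3% of the alpha sum at P22 and under 30% at P7, and Scn4b takes 96.5% and 94.3% of the beta sum at P22.

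Of sodium channel genes outside the list, Scn4a (the skeletal muscle channel) fell with age by 3.38 on the log2 scale (SE 0.43, edgeR adjusted p = 8.69e-06). Scn10a and Scn11a, the channels of nociceptive sensory neurons, had means under 1 CPM in every count group.

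Scaffold and adhesion genes of nodes, initial segments and the stretches of axon beside nodes were listed as 13 genes, of which 12 were in the tables. From P7 to P22 8 of the 12 were called higher (13.8% of all genes) and 0 lower, with a median log2 fold change of 1.82. The largest changes were in Sptbn4 (beta IV spectrin, 3.95), Cntn2 (a juxtaparanodal adhesion molecule, 3.45), Ank2 (ankyrin B, 2.41) and Cntnap1 (the paranodal protein Caspr, 2.29). Those not called were Ank3 (0.48), Cntn1 (0.55), Sptbn1 (0.57) and Nrcam (-0.91). Between genotypes, 1 of 12 was called lower at P22 (Ank2, -0.54, SE 0.07, edgeR adjusted p = 0.00255), beside 1.41% of all genes. In the P7 rounded TPM 3 of 11 were called higher (Ank2 0.53, Cntnap1 0.69 and L1cam 0.88), beside 0.572% of all genes. Each had limma adjusted p = 0.0452 and was, like the Scn8a call of that set, near the threshold. In the P7 counts 0 of 12 were called by edgeR and 0 had an unadjusted p under 0.05. The signs of Ank2 and Scn8a were thus alike within P22 and within the rounded TPM. This was not particular to Ank2: 10 of the 12 genes were negative at P22 and 10 of 11 positive in the rounded TPM.

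Of the 4 genes for intracellular fibroblast growth factors that bind the channel (Fgf11 to Fgf14), Fgf12 and Fgf13 were called lower in Bai1 tm2b/tm2b at P22, beside 1.41% of all genes. Fgf12 had a log2 fold change of -0.54 (SE 0.07, edgeR adjusted p = 0.00245) and Fgf13 of -1.01 (SE 0.30, edgeR adjusted p = 0.0495, with a mean under 1 CPM in homozygous pools). Between ages these genes split: Fgf12 rose by 2.52 on the log2 scale, whereas Fgf13 fell by 2.39, Fgf14 fell by 1.93 and Fgf11 fell by 1.74. Of 7 potassium channel genes of nodes and juxtaparanodes, 4 were called higher with age, beside 13.8% of all genes (median over the 7 of 2.58). Between genotypes at P22 edgeR called 0 of the 7. An unadjusted p under 0.05 was found for 4 of them, each negative, beside 4422 of all 15419 genes in either direction. The median over the 7 was -0.21, beside 0.01 for all genes.

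The 5 genes whose log2 CPM over the 12 count libraries followed Scn8a most closely, among 14497 genes, were Ublcp1, Micu3 (a mitochondrial calcium uptake regulator), Cacna1a (the P/Q-type calcium channel), Sptan1 (alpha II spectrin) and Cdr1, each with Pearson r = 0.998. Within the list, the values were 0.989 for Scn4b, 0.983 for Scn1a and 0.932 for Scn7a, near 0 for Scn2a1 and Scn2b (0.06 and 0.03), and -0.94 for Scn3b. These values describe a pattern over libraries that fall into an early and a late cluster, and most of it is the difference between ages. Cdr1 rose with age by 4.00 on the log2 scale and was lower in Bai1 tm2b/tm2b at P22 by 0.63 (edgeR adjusted p = 0.00784), whereas Ublcp1, Micu3, Cacna1a and Sptan1 rose by 1.34 to 2.34 and had P22 genotype differences of -0.22 to -0.26.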

How the data were processed

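RNA-seq data of apical cochlear coils were used as deposited. The authors prepared poly A libraries, sequenced paired ends, mapped them to mm10 with the standard nf-core RNA pipeline and quantified them with Salmon (STAR and DESeq2 are also named in the submitters' processing notes); the annotation release and strand setting are not given in the sources used here. The authors deposited estimated counts per gene from Salmon, not normalized, for P22 and for P7 replicates 5 to 7, with depths of 31108551 to 58807173 counts per library. For P7 replicates 1 to 4 the authors deposited a rounded score per gene, whole numbers that sum to 999644 to 999777 in each library. These deposited scores were treated as rounded TPM, because over 6857 genes the ratio of CPM to the value increased with transcript length (Spearman rho across genes 0.650), and limma was used for them. Their depth is unknown.

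Of the 24411 genes, 27 with repeated or date-like names were left out, and 24384 were used. Counts were rounded, filtered (filterByExpr), scaled by TMM within each set and tested by quasi-likelihood in edgeR 4.0.16 (R 4.3.3). Rounded TPM were scaled by TMM and tested as log2(TPM + 1) with limma 3.58.1 (trend) where the gene's mean was 5 TPM or more. Age and the difference of genotype effects were fitted jointly over the 12 count libraries, with genotypes weighted equally. All tests were adjusted over all genes tested (Benjamini-Hochberg). DESeq2 1.42.0 was an alternative. Printed CPM were scaled over the 12 count libraries together. Levels per length used the longest GENCODE M21 transcript on GRCm38 (protein-coding where a gene has one), found for 98.5% of genes. Single values and ratios were compared by 2-sided exact permutation tests. The labels do not say that the pools of a group are independent cultures or litters, so p-values measure the spread between pools.

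The 9 genes and all lists were chosen with earlier results of these data known. Genes named beyond the 9 were, per list, those called (at most 4 by size between ages), and the 5 most correlated with Scn8a with at least 500 counts in all. The scaffold genes not called between ages are named as well. Some genes of these lists are not reported here. The model scripts were tested on simulated data. Alternatives were scaling (size factors of DESeq2, neuron markers), filters, pseudocounts of 0.1 and 5, removal of a transcript length trend, a replicate block, each genotype alone and each library left out.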

Additional observations from a re-analysis of the deposited data

Results flagged for a closer look

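In the P7 rounded TPM, Scn3b of homozygous replicate 4 was listed at 17, whereas the other homozygous libraries were listed at 11, 12 and 12. The gap to the nearest library, divided by the range of the group, was above the 95% critical value of Dixon for 4 samples, which chance alone exceeds in about 1 in 20 groups. That value was not adjusted for the number of groups. The flag rests on the listed whole numbers: after scaling, homozygous replicate 4 was at 15.8 and replicates 1 to 3 at 10.7, 11.4 and 11.7. Scn1a had its highest value of this set in the same library (16), while Scn4b (17) and Scn8a (7) of that library lay within the range of the other homozygous libraries.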

How the results depend on the processing

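At P22, the number of the 9 genes called lower was 1 with the length trend removed (Scn4b was then at -0.48), 0 when scaled to neuron markers, with 2 called higher, and 0 to 2 with each library left out. Scn1a was 0.038 when scaled to neuron markers, and Scn3a ranged from -0.089 (without homozygous replicate 3) to 0.32 with libraries left out. In the P7 counts, DESeq2 called 1 gene higher (Scn2a1). Scaling to neuron markers gave 0.038 for Scn1a, 0.31 for Scn8a and 0.33 for Scn7a, and leaving out libraries gave -0.54 to 0.075, -0.17 to 0.20 and -0.52 to 0.23 for these genes. In the P7 rounded TPM, the 1 call (Scn8a) was 0 with the length trend removed, a mean of at least 1 TPM, no filter, a pseudocount of 5 or neuron markers, 2 without TMM scaling, and 0 to 2 with libraries left out. Over all genes in that set, 21 lower and 67 higher became 0 and 0 with a minimum of 1 TPM, no filter, the length trend removed or the replicate block, 12 and 32 with a pseudocount of 5, and 71 and 255 without homozygous replicate 1; scaling shifted the median of all genes to 0.12 without TMM and to -0.21 with neuron markers. Between ages, the number called lower was 1 in heterozygous libraries alone and with the length trend removed, and 6 when scaled to neuron markers, where 1 was called higher. On that scale Scn1a was -0.40, Scn2a1 -2.60 and Scn7a -1.15. In homozygous libraries alone Scn2a1 was -0.31 and Scn2b 0.34, and with the length trend removed Scn2b was 0.12. With libraries left out, Scn2a1 ranged from -0.0093 to 0.13 and Scn2b from -0.14 to 0.12. For the difference of genotype effects the ranges were -0.31 to 0.33 for Scn1a, -0.058 to 0.65 for Scn7a and -0.36 to 0.13 for Scn3b, and for the Scn4b to Scn3b ratio in the rounded TPM it was -0.33 to 0.10. The cause was not tested. Of the alternatives other than a left-out library, 245 of the single values kept direction and call. Beside them 10 changed sign, 12 lost a call and 7 gained a call. With a library left out, 336 kept direction and call, 19 changed sign, 7 lost a call and 1 gained a call.

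The replicate numbers are only shared between genotypes: same-numbered pools correlated at -0.01 to 0.09 at P22, 0.07 to 0.11 in the P7 counts and -0.18 to 0.02 in the rounded TPM. With the replicate block the 2 genes called lower at P22 and the 0 called in the P7 counts and for the difference of genotype effects were as before, while the Scn8a call in the rounded TPM was lost (0 called, limma adjusted p = 0.119). No paired analysis was possible between ages because the P7 and P22 pools came from different mice. The count pools compared between ages also share no replicate numbers. With 3 pools a group, pooled animals and bulk tissue, the values cannot be assigned to a cell type, and genes near 1 to 3 TPM are limited by rounding.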
